A study of Mus musculus with 27 samples.

Results

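The genes described here are 10 neuronal activity-regulated genes, chosen by symbol out of 31053 genes counted in nuclei of the mouse hippocampus. They were Fos, Fosb, Junb, Egr1, Egr3, Nr4a1 and Npas4, which encode transcription factors, Arc and Homer1, which encode proteins of the synapse, and Bdnf, which encodes a secreted growth factor. In neurons, synaptic input and calcium entry start signals that act on factors that already sit at these genes, such as CREB, SRF and MEF2. Transcription of the first wave then rises within minutes and fades again, and its products switch on later genes that adjust synapses. In the hippocampus such genes are widely used as marks of neurons that were recently active, although several of them also respond to growth factors, stress and injury in glia.

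The libraries came from the hippocampi of 27 mice, 1 library per mouse, made from sorted nuclei of frozen tissue with a droplet method that counts UMIs, the individual captured RNA molecules. Of the mice without the tau transgene, 5 were Cgas+/+ (2 of them female), 2 were Cgas+/- and 2 were Cgas-/-, the last 2 groups all male. Groups with it were P301S Cgas+/+, P301S Cgas+/- and P301S Cgas-/-, with 6 mice each, 3 of each sex. P301S is human tau with a mutation found in dementia, expressed from the mouse Prnp promoter, and Cgas encodes a sensor of cytosolic DNA. The labels give no age, treatment, stimulation or training for any group. The paper does give ages, and its methods state that mice went through behavioral tests before they were used for RNA-seq. Which of these libraries that covers is not in the labels. The libraries held 46091490 to 79484316 UMIs each, and 204852 nuclei were kept and assigned to classes by marker genes. Since mice and not nuclei are replicates, UMIs were summed per library and class and are given as CPM, the UMIs of a gene scaled to the total UMIs of that class in that library.

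The UMIs of the targeted gene did not follow the labels throughout. Cgas UMIs in microglia-like nuclei amounted to 35.4 ± 2.41 CPM (SD, n = 5) in the libraries labelled Cgas+/+ and to 37.7 ± 11.2 CPM (n = 6) in those labelled P301S Cgas+/+. They amounted to 42.5 ± 11.1 CPM (n = 6) in the libraries labelled P301S Cgas+/- and to 51.4 ± 7.13 CPM (n = 6) in those labelled P301S Cgas-/-. The 2 libraries labelled Cgas-/- had 21.6 and 33.1 CPM, and those labelled Cgas+/- had 15.9 and 22.3 CPM. In these nuclei the means of the libraries labelled P301S Cgas+/- and P301S Cgas-/- were thus not below that of P301S Cgas+/+. In excitatory neuron-like nuclei, where the gene is scarce, the order was the other way, with 1.59 ± 0.484 CPM in P301S Cgas+/+, 1.33 ± 0.375 CPM in P301S Cgas+/- and 0.977 ± 0.241 CPM in P301S Cgas-/- libraries, while those labelled Cgas-/- had 1.58 and 2.09 CPM against 1.38 ± 0.207 CPM in Cgas+/+. Of the 2 labelled Cgas-/-, in microglia-like nuclei 1 lay below the Cgas+/+ range of 32.2 to 39.0 CPM and 1 within it. A 3′ tag outside the deleted part, which the sources used here do not give, would check nothing. The genotypes below are those of the labels.

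A pair of libraries stood apart from the rest. The summed level of the 8 rapid members (the 10 genes without Homer1 and Bdnf) in excitatory neuron-like nuclei was 371.6 CPM in library 3 and 338.0 CPM in library 2 labelled P301S Cgas-/-. The next library, P301S Cgas+/+ library 1, had 185.2 CPM, and the lowest, P301S Cgas+/+ library 5, had 42.5 CPM. These same 2 libraries also ranked first and second in inhibitory neuron-like, CA1-like and cortical-like nuclei, and among the first 3 in dentate granule-like nuclei. The deletion contrast in excitatory neuron-like nuclei is therefore also given without them, as are several of the descriptions. They were chosen after their values were seen and are both of 1 group. Leaving them out thus lowers the rapid members of that group by construction. The upper limit on genes per nucleus removed 2066 of 9293 barcodes in library 2 and 1451 of 7709 in library 3. It also removed 1501 of 8317 in library 4 of that group, but 311 to 468 in its libraries 1, 5 and 6. In the P301S Cgas+/+ libraries it removed from 510 of 14770 to 870 of 7906. The part of this limit in the results was not tested.

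In GRCm38 with GENCODE vM21, Fos lies at chr12:85473890-85477273, Fosb at chr7:19302696-19310051, Junb at chr8:84974484-84978718, Egr3 at chr14:70077203-70082614 and Arc at chr15:74669083-74672570. Nr4a1 lies at chr15:101254269-101274795, Npas4 at chr19:4984355-4990316, Homer1 at chr13:93299635-93405129 and Bdnf at chr2:109674700-109727007. All are protein-coding, and introns counted as well as exons because nuclear RNA is largely unspliced. Homer1 spans 105495 bases, and its total cannot separate the short activity-induced form from the long constitutive one.

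The stretches before the start sites of 5 genes are shown because the first wave is classically read through cAMP response elements, the sites of CREB. Each stretch is the 250 bases before a RefSeq start site in GRCm38.p6, written 5′ to 3′ on the strand of the gene, with the half-site of that element, TGACG on either strand, in capitals. They are Fos at chr12:85473640-85473889 (plus strand), Nr4a1 at chr15:101266596-101266845 (plus strand), Npas4 at chr19:4989972-4990221 (minus strand), the first listed start of Homer1 at chr13:93303507-93303756 (plus strand) and the third listed start of Bdnf at chr2:109692186-109692435 (plus strand).
Fos: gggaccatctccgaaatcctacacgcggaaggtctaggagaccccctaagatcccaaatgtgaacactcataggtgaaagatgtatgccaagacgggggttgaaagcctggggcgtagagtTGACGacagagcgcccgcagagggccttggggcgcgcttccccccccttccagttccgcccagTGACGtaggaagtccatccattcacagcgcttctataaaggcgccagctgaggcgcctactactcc
Nr4a1: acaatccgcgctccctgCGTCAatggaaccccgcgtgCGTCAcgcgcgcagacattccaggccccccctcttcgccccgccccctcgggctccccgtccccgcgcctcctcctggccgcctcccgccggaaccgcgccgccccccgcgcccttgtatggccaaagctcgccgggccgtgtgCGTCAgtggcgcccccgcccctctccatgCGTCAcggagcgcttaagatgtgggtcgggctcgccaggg
Npas4: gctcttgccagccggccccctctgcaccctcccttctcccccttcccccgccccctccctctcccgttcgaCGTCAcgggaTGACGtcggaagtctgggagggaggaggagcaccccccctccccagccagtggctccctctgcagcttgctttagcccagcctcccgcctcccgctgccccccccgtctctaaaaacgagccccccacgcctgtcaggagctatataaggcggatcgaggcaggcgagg
Homer1: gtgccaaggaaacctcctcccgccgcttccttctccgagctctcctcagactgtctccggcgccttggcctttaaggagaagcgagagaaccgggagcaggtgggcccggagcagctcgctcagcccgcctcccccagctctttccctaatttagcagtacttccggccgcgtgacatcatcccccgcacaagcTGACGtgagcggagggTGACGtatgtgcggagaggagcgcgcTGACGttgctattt
Bdnf: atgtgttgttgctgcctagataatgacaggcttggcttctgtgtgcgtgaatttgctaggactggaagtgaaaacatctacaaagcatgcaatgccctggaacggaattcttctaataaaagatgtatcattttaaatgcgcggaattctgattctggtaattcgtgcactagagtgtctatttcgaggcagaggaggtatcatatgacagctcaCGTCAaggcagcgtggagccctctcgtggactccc
The windows of Homer1 and Bdnf were shown because they hold a half-site. The other start of Homer1 and the other 6 of the 7 starts of Bdnf held none, so 7 of the 14 windows of these genes held one. Counted in bases before the start site, they began at 129 and 66 in Fos, at 233, 213, 69 and 40 in Nr4a1, at 179 and 169 in Npas4, at 56, 40 and 14 in Homer1 and at 35 in Bdnf. Among 32851 promoter windows of 300 bases (250 before and 50 after the start), 20.8% held this half-site. The whole element, TGACGTCA, was in 1.79% of all windows and in none of the 14 windows of these genes, and the CArG box of SRF was in 1.63% of all windows and also in none of the 14. In Fos, a TATA box (TATAAA), which 8.32% of all windows held, began 33 bases before the start. Fosb and Junb held 1 half-site each, at 60 and 106 bases. A match is a description of letters and says nothing of binding here, and Egr1, Egr3 and Arc are named only.

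Each gene had its own order of cell classes. Among the excitatory subtypes, the mean level of each rapid member was highest in cortical-like or CA1-like nuclei and lowest in dentate granule-like or CA3-like nuclei. Cortical-like nuclei are named from markers of cortical projection neurons, and 3953 striatal projection neuron-like nuclei in 20 libraries were present too, about as many as the 4177 CA3-like nuclei. Arc, whose product moves AMPA receptors out of synapses, averaged 11.8 ± 12.9 CPM (SD, n = 27 libraries) in cortical-like and 10.6 ± 10.8 CPM in CA1-like nuclei. It averaged 4.28 ± 4.96 CPM (n = 22) in CA3-like, 1.71 ± 2.02 CPM in dentate granule-like and 1.29 ± 1.5 CPM in inhibitory neuron-like nuclei. The levels in cortical-like and CA1-like nuclei lay within the spread over libraries of each other, and these subtypes were not compared within mice. Library 3 labelled P301S Cgas-/- was the highest in both, and without the 2 high libraries the means of Arc were 8.93 ± 7.35 CPM (n = 25) in cortical-like and 8.23 ± 4.63 CPM in CA1-like nuclei. Nr4a1, an orphan nuclear receptor, averaged 83.5 ± 27 CPM in cortical-like nuclei, 65.6 ± 22.3 CPM in CA1-like nuclei and 36.4 ± 15.1 CPM in CA3-like nuclei. It was far lower in dentate granule-like nuclei, at 7.18 ± 3.57 CPM. Egr1, a zinc finger factor, averaged 19.5 ± 16.0 CPM in cortical-like, 12.8 ± 10.54 CPM in CA1-like and 2.70 ± 2.19 CPM in dentate granule-like nuclei. Npas4, a factor that is known to respond to calcium entry in neurons more than to other stimuli, averaged 9.36 CPM in both cortical-like and CA1-like nuclei (SD 7.07 and 5.75), and 1.83 ± 2.04 CPM in dentate granule-like nuclei. Striatal projection neuron-like nuclei had 10.3 ± 6.73 CPM of it (n = 20), and its highest mean, 12.5 ± 16.3 CPM (n = 19), was in ependymal-like nuclei on 24 UMIs.

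Bdnf ran the other way among excitatory subtypes. It averaged 68.5 ± 17.1 CPM in dentate granule-like, 49.6 ± 12.1 CPM in CA3-like, 32.5 ± 7.29 CPM in CA1-like and 22.5 ± 7.88 CPM in cortical-like nuclei. Inhibitory neuron-like nuclei had 1.95 ± 1.04 CPM. Homer1, a scaffold that links metabotropic glutamate receptors to calcium stores, was found in every class. Its mean was 284.6 ± 122.3 CPM in cortical-like, 258.7 ± 53.4 CPM in CA1-like, 197.8 ± 45.3 CPM in CA3-like and 104.8 ± 44.6 CPM in dentate granule-like nuclei, where astrocyte-like nuclei had 76.6 ± 14.0 CPM and oligodendrocyte-like nuclei 98.9 ± 29.5 CPM.

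Several of these genes were not highest in neurons. Fos and Junb had their highest means in fibroblast-like nuclei, followed by astrocyte-like nuclei for Fos and by endothelial-like nuclei (23.9 ± 16.1 CPM, n = 24) for Junb. Fos, which forms the AP-1 factor with a Jun protein, averaged 8.27 ± 7.66 CPM in astrocyte-like nuclei against 3.54 ± 4.32 CPM in cortical-like, 2.04 ± 1.82 CPM in CA1-like and 0.738 ± 0.796 CPM in dentate granule-like nuclei. Junb, a Jun protein, averaged 23.7 ± 11.1 CPM in microglia-like, 12.2 ± 13.7 CPM in astrocyte-like and 12 ± 11.6 CPM in cortical-like nuclei. Egr1 averaged 60.8 ± 85.4 CPM in fibroblast-like nuclei (18 libraries with at least 10 such nuclei), with a spread larger than the mean, as did Fos (17.1 ± 40.3 CPM) and Junb (38.4 ± 59.3 CPM) there. Single libraries reached 166.4 CPM of Fos and 257.8 CPM of Junb. Without the 2 high libraries Fos averaged 8.89 ± 16.3 CPM (n = 16) in fibroblast-like and 7.74 ± 7.72 CPM (n = 25) in astrocyte-like nuclei. Arc had 8.58 ± 4.29 CPM in oligodendrocyte-like nuclei, within the spread of its level in CA1-like nuclei. Egr3, a second zinc finger factor, had its highest means in cortical-like (11.6 ± 8.89 CPM) and CA1-like nuclei (9.64 ± 5.20 CPM). It was at 5.36 ± 3.06 CPM in dentate granule-like, 4.49 ± 3.28 CPM in microglia-like, 1.37 ± 1.33 CPM in astrocyte-like and 1.10 ± 0.928 CPM in inhibitory neuron-like nuclei. Without the 2 high libraries it averaged 6.99 ± 8.17 CPM (n = 19) in striatal projection neuron-like, 5.58 ± 2.26 CPM (n = 21) in CA3-like and 4.76 ± 1.88 CPM (n = 25) in dentate granule-like nuclei. Fosb, a close relative of Fos, averaged 3.11 ± 3.5 CPM in cortical-like and 0.311 ± 0.328 CPM in astrocyte-like nuclei, and its highest mean, 4.10 ± 7.69 CPM, was in fibroblast-like nuclei on 11 UMIs. Differences between glia and neurons were not tested.

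**Figure D1:**
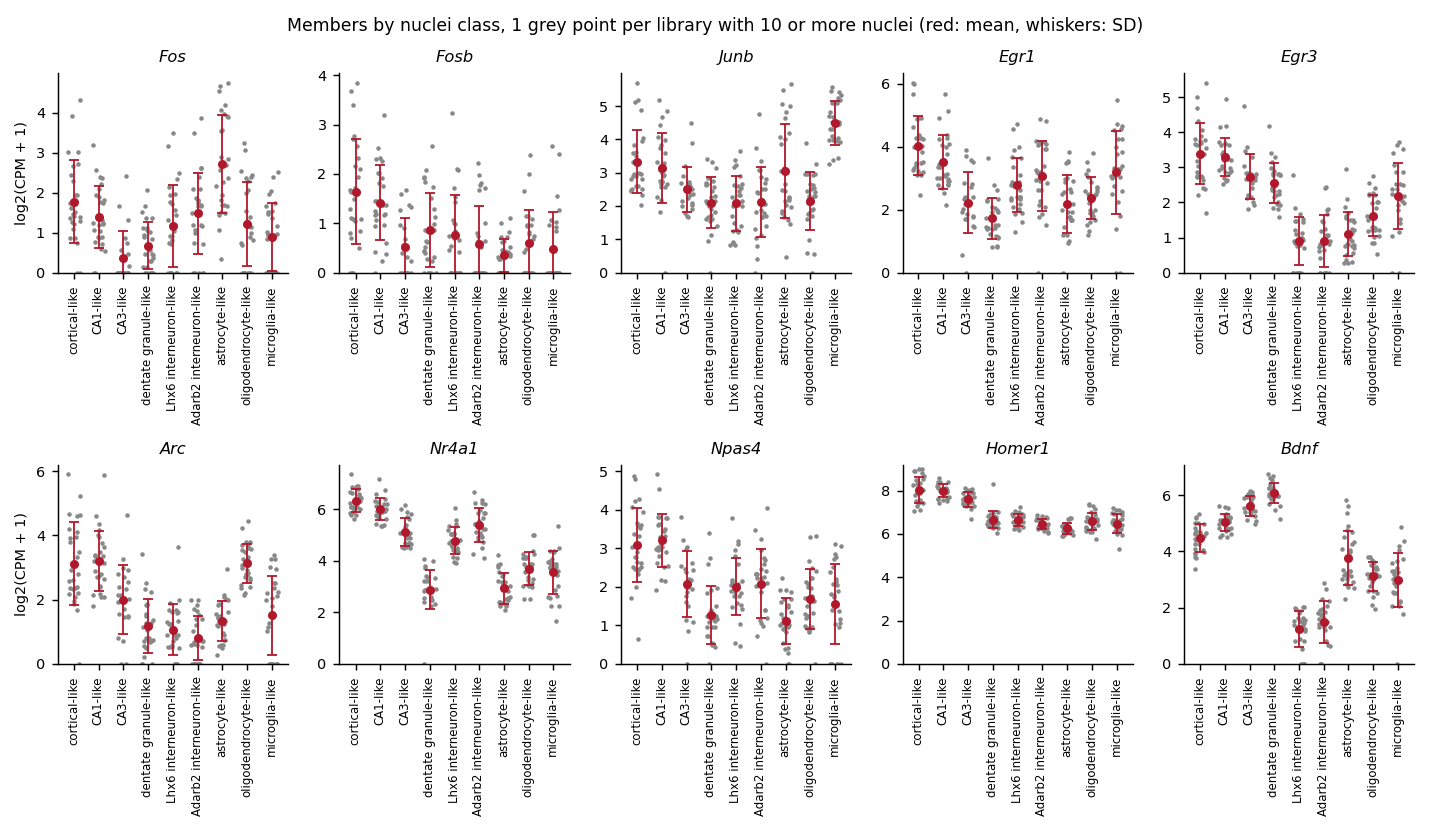
Level of the 10 genes as log2(CPM + 1) in 9 nuclei classes, 1 grey point per library with at least 10 nuclei of the class, with the mean in red and whiskers for the SD. Bdnf is highest in dentate granule-like nuclei (mean 68.5 CPM), whereas Nr4a1 is highest in cortical-like nuclei (83.5 CPM) and far lower in dentate granule-like nuclei (7.18 CPM).

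Both neuron classes of a library come from the same mouse, so classes were compared within mice, with edgeR's quasi-likelihood test and Benjamini-Hochberg adjustment over all genes. The 10 genes and related activity genes had been left out of the genes used for clustering. In inhibitory against excitatory neuron-like nuclei, all 10 were lower at an adjusted p under 0.05 (27 libraries), with a median log2 difference of -1.38, where the median over all 14084 genes was 0.01. Of all genes 75.6% passed, 38.8% higher and 36.8% lower, so a call alone says little and sizes matter more. Bdnf was 21.5-fold lower (log2 -4.42 ± 0.10 SE, edgeR adjusted p = 7.99e-27), Egr3 9.42-fold (-3.24 ± 0.11) and Arc 8.17-fold (-3.03 ± 0.13). Homer1 was 2.70-fold lower and Egr1 1.71-fold. Fos was the least different, at 1.30-fold lower (-0.38 ± 0.14, edgeR adjusted p = 0.0154), and in the 9 libraries without P301S alone neither Fos (-0.20, edgeR adjusted p = 0.530) nor Egr1 (-0.32, edgeR adjusted p = 0.197) passed the test.

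Dentate granule-like nuclei had less of the rapid members and more Bdnf than CA1-like or cortical-like nuclei. Against CA1-like nuclei, 8 of the 9 genes tested were lower and Bdnf was higher (72.5% of 12770 genes passed, 35.4% higher and 37.1% lower). The median of the 9 was -1.42, against -0.00 over all genes. Nr4a1 was 9.63-fold lower (log2 -3.27 ± 0.07), Arc 6.93-fold (-2.79 ± 0.16), Npas4 6.38-fold and Egr1 5.46-fold. Bdnf was 1.94-fold higher (0.96 ± 0.08, edgeR adjusted p = 2.0e-12). Cortical-like nuclei against dentate granule-like nuclei gave the mirror image, with 9 of 10 genes higher and Bdnf 3.17-fold lower (73.7% of 13257 genes passed, 37.7% higher). The largest difference was again that of Nr4a1, 11.4-fold (3.51 ± 0.07), followed by Egr1 with 7.42-fold and Arc with 6.52-fold. Both comparisons use the same dentate granule-like sums.

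The pyramidal subtypes differed less. In CA1-like against CA3-like nuclei (22 libraries), 7 of the 8 genes tested were higher and Bdnf was lower (49.4% of 10924 genes passed, 26.7% higher), with a median of 0.87 against 0.03 over all genes. Egr1 was 2.65-fold higher (log2 1.41 ± 0.17), Npas4 2.24-fold and Arc 2.22-fold, and Bdnf was 1.55-fold lower (-0.64 ± 0.07). Homer1 was 1.24-fold higher (0.31 ± 0.07, edgeR adjusted p = 0.000863) and did not pass in the libraries without P301S alone (0.17, edgeR adjusted p = 0.102). In dentate granule-like against CA3-like nuclei, 6 genes were tested, of which Nr4a1 (5.07-fold), Homer1 (2.06-fold) and Egr1 (1.86-fold) were lower and Bdnf was higher (1.31-fold). There 67.2% of 11055 genes passed, 35.9% higher and 31.3% lower. Egr3 (log2 -0.30, edgeR adjusted p = 0.0716) and Junb (-0.24, edgeR adjusted p = 0.185) did not pass, and the other 4 rapid members did not pass the filter on low counts.

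Levels also varied inside the excitatory class. Among its 36 subclusters, a subcluster of 2995 nuclei, led by Rspo1, Col26a1 and Rorb and left unnamed, had 13.1 CPM of Fos, 62.3 CPM of Egr1, 42.9 CPM of Arc and 191.0 CPM of Nr4a1. A cortical-like subcluster of 2713 nuclei led by Syt6 and Foxp2 had the highest Homer1, 789.7 CPM, and 33.3 CPM of Arc, but 9.21 CPM of Bdnf. Library 1 labelled P301S Cgas+/- held 20.7% and 17.8% of the nuclei in the subclusters led by Rspo1 and Syt6, respectively. Among dentate granule-like subclusters, 1 of 5005 nuclei had 145.2 CPM of Bdnf and 13.3 CPM of Nr4a1, where another of 4767 nuclei had 41.9 and 4.42 CPM. These are descriptions of clusters, with no test.

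A summed level does not show how many nuclei carry an RNA. To count them at equal depth, nuclei were thinned to 2000 UMIs each, and shallower nuclei were left out. An Arc UMI was then found in 641 of 28313 cortical-like nuclei (2.26%, 95% exact Clopper-Pearson interval 2.09% to 2.44%) and in 305 of 17140 CA1-like nuclei (1.78%, 1.59% to 1.99%). Only 56 of 19657 dentate granule-like nuclei had one (0.285%, 0.215% to 0.370%). The share in oligodendrocyte-like nuclei, meant as the background, was 2.0% (1.74% to 2.29%). Other classes had lower shares, so for Arc this is not an empty level. Without the 2 high libraries Arc averaged 7.73 CPM in oligodendrocyte-like and 1.51 CPM in astrocyte-like nuclei. At this depth the intervals of Arc in cortical-like and CA1-like nuclei overlapped that of oligodendrocyte-like nuclei. Those in dentate granule-like, CA3-like (0.331% to 0.799%) and inhibitory neuron-like nuclei (0.142% to 0.318%) lay below it. Astrocyte-like nuclei had 0.308%. At 1000 UMIs, which leaves out 1192 oligodendrocyte-like nuclei in place of 22371, the Arc share was 1.15% in cortical-like (1.03% to 1.28%), 0.843% in CA1-like (0.712% to 0.991%) and 0.859% in oligodendrocyte-like nuclei (0.760% to 0.967%), and the cortical-like interval then lay above that of oligodendrocyte-like nuclei. For Egr1, shares were 3.91% in cortical-like, 2.19% in CA1-like, 0.422% in dentate granule-like and 0.916% in oligodendrocyte-like nuclei. Median depths before thinning were 8400, 10822, 7924 and 1752 UMIs in that order, and 258, 80, 207 and 22371 nuclei were too shallow. The intervals cover counting error only.

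Several rapid members were found in the same nuclei. At least 2 of the 8 were found in 4.0% of cortical-like and 2.53% of CA1-like nuclei, against 0.295% of dentate granule-like and 0.860% of inhibitory neuron-like nuclei. In glia the share was 1.13% of microglia-like, 0.316% of astrocyte-like and 0.277% of oligodendrocyte-like nuclei. Cortical-like nuclei with an Arc UMI carried Fos in 5.93% of cases, and those without one in 0.571%, a ratio of 10.4. The ratio was 11.1 for Fosb, 6.79 for Npas4, 6.52 for Junb, 4.88 for Egr3 and 4.19 for Egr1. It was 2.16 for Nr4a1, close to Bdnf with 1.78 and Homer1 with 1.72. In the 56 dentate granule-like nuclei with an Arc UMI, 3 carried Fos and 22 carried Bdnf. Nuclei of 1 mouse share their library, so these ratios are descriptions.

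The same genes rose and fell together between mice. In excitatory neuron-like nuclei of the 27 libraries, with log2(CPM + 1) centred on the genotype group, 33 of the 45 pairs of genes correlated at a Benjamini-Hochberg adjusted permutation p under 0.05 (100000 resamples, two-sided), and 32 did by Spearman's rho. Of the 28 pairs among rapid members 27 did, with a median r of 0.81 and a range of 0.37 to 0.95. How many pairs drawn from all genes would pass was not computed, so these counts have no background. The closest pair was Egr1 with Arc (r = 0.95, rho = 0.94, adjusted permutation p = 2.37e-05, from 1e-05, the smallest that these resamples can give). Without the 2 libraries farthest from the median of 1 gene of each pair, the other gene not being used for the choice, the median r over the 28 was 0.76. Junb with Nr4a1 was the pair that did not pass (r = 0.37, rho = 0.36, adjusted permutation p = 0.0747).

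Bdnf stood outside this pattern. Of its 9 pairs only that with Egr3 passed (r = 0.54, rho = 0.48, adjusted permutation p = 0.00586, and r = 0.37 without the 2 farthest libraries), and its median r was 0.20. Homer1 correlated with 5 of the 8 rapid members, with a median r of 0.49 and the lowest value, 0.04, with Junb (rho = 0.07, adjusted permutation p = 0.839). Cell Ranger versions in the file headers and the order of deposit split the libraries into blocks of 12, 8 and 7, within which the median r of the 28 rapid pairs was 0.92, 0.81 and 0.66, with a lowest r of 0.67, -0.26 and -0.14. In cortical-like nuclei alone it was 0.74, and in CA1-like nuclei alone 0.60.

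**Figure D2:**
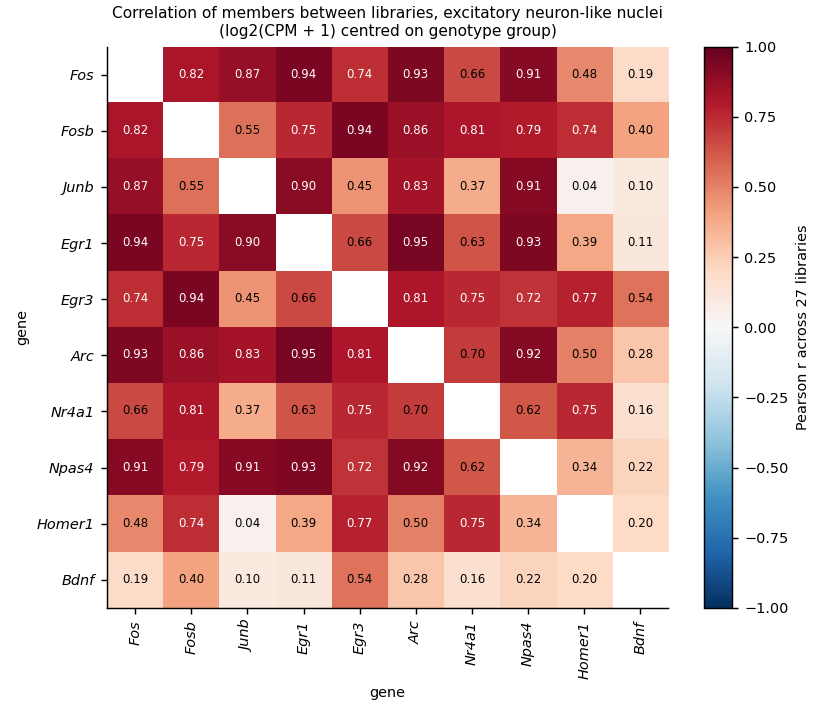
Pearson r between the 10 genes over 27 libraries in excitatory neuron-like nuclei, from log2(CPM + 1) centred on the genotype group. The 8 rapid members form a block with r from 0.37 to 0.95, Homer1 joins part of it, and the Bdnf row runs from 0.10 to 0.54.

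The variation was shared across neuron classes of a mouse. Between excitatory and inhibitory neuron-like nuclei of the same library, 9 of the 10 genes correlated, from r = 0.70 for Arc (rho = 0.47, adjusted permutation p = 8.89e-05) to r = 0.92 for Homer1 (rho = 0.91, adjusted permutation p = 1.43e-05). Without the 2 libraries farthest from the median of the gene in excitatory neuron-like nuclei, r was 0.53 for Arc and 0.90 for Homer1. Bdnf did not (r = 0.24, rho = 0.29, adjusted permutation p = 0.223), on 204 UMIs in inhibitory neuron-like nuclei. Among the genes that did, Fosb (92 UMIs), Egr3 (121) and Arc (132) had fewer there. How many of all genes correlate between these classes was not computed, so the count of 9 has no background. Other measures moved with the members. The summed level of the rapid members, on a log2 scale, had r = 0.74 with the share of cortical-like nuclei among excitatory neuron-like nuclei and r = -0.62 with the dentate granule-like share. It had r = 0.79 with the summed level of 7 heat shock genes and r = 0.63 with astrocyte markers in the same nuclei. The heat shock genes were listed as a sign of tissue handling, but only 3 of the 7 reached a mean of 5 CPM. Whether their sum marks handling was not tested. The summed level of the rapid members had r = 0.35 with the median UMI count and -0.16 with the mitochondrial share. Neither measure gives the share of barcodes removed by the upper limit on genes, and r with that share is not given. With the 2 high libraries left out, r was 0.78 with the cortical-like share, 0.66 with heat shock and 0.70 with astrocyte markers (25 libraries). These are descriptions over 27 libraries that differ in genotype and depth, and the part of these measures in the results below was not tested.

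The tau contrast asks whether the transgene changed the genes where Cgas is intact, comparing the libraries labelled P301S Cgas+/+ (n = 6) with Cgas+/+ (n = 5) in a fit of the 23 libraries of 4 groups with sex as a covariate. In excitatory neuron-like nuclei the genes did not move in a common direction. Fos was at 1.59, 0.202, 2.41, 3.42 and 1.85 CPM in the Cgas+/+ libraries, and at 0.527 CPM (lowest), 1.08 CPM (median) and 5.16 CPM (highest) in the P301S Cgas+/+ libraries. Egr1 was at 7.16, 3.33, 8.93, 19.1 and 12.2 CPM against 3.42, 5.98 and 23.3 CPM. Arc was at 4.24, 1.87, 6.87, 12.5 and 5.81 CPM against 2.17, 4.02 and 19.8 CPM. The groups overlapped for all 10 genes, and 0.160% of all genes did not overlap. None of the 10 was called by edgeR (adjusted p = 1.0 for each), 0 had an unadjusted p under 0.05, and DESeq2 called 0. Over all 16907 genes 0.0237% were called and 2.27% had an unadjusted p under 0.05. Log2 fold changes ran from -0.33 ± 0.32 (SE) for Nr4a1 to 0.24 ± 0.63 for Arc, with a median of 0.00, against -0.01 over all genes. The standard errors, 0.17 to 0.74, limit what could be seen.

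**Figure D3:**
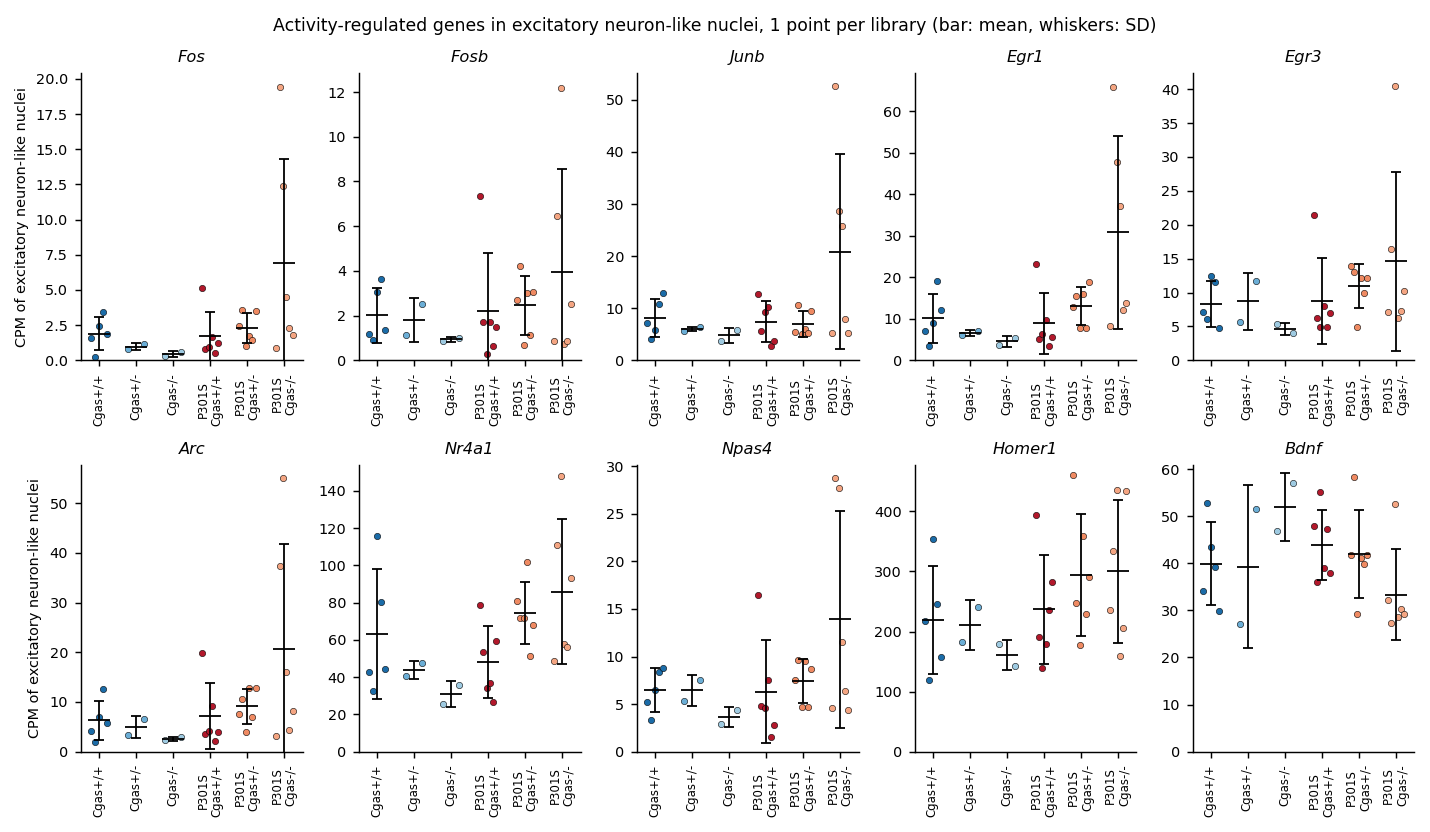
CPM of the 10 genes in excitatory neuron-like nuclei, 1 point per library, by labelled genotype group, with bars for the mean and whiskers for the SD. The groups overlap for every gene in the tau contrast, and the highest points of most rapid members are libraries labelled P301S Cgas-/-, such as 19.4 CPM for Fos and 66.0 CPM for Egr1.

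The other neuron classes gave no call either. In inhibitory neuron-like nuclei 0 of 7 genes tested were called (0.00791% of 12648 genes). In CA1-like nuclei (0.0224% of 13411) and cortical-like nuclei (0.00678% of 14745) none had an unadjusted p under 0.05, against 1.86% and 1.89% of all genes. In dentate granule-like nuclei 0 of 9 were called (0.00785% of 12743 genes), and only Egr1 had an unadjusted p under 0.05, against 4.05% of all genes. Its Cgas+/+ libraries had 1.61, 1.66, 3.23, 3.83 and 3.95 CPM, and its P301S Cgas+/+ libraries had 0.744, 1.17 and 3.01 CPM at the lowest, median and highest. The groups overlapped, as they did for all 9 genes tested (0.212% of all genes did not overlap). The log2 fold change was -1.06 ± 0.43 (edgeR adjusted p = 1.0). The share of thinned dentate granule-like nuclei with an Egr1 UMI was 0.126% ± 0.129 (SD, n = 6) against 0.477% ± 0.278 (n = 5) (exact two-sided permutation p = 0.0173, adjusted 0.216 over 20 tests at 1000 UMIs per nucleus). For Nr4a1 in CA1-like nuclei it was 4.46% ± 0.873 against 6.35% ± 1.22 (exact two-sided permutation p = 0.0216, adjusted 0.216). None of the 20 share tests passed the adjustment. At 2000 UMIs per nucleus the smallest p was again that of Egr1 (exact two-sided permutation p = 0.0368, adjusted 0.654), and Nr4a1 in CA1-like nuclei had an exact permutation p of 0.184. Without thinning both were over 0.05, and Egr1 in dentate granule-like nuclei in the deletion contrast had the smallest (exact two-sided permutation p = 0.0498, adjusted 0.765).

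The deletion contrast asks what the labelled deletion of Cgas did in mice with the transgene, comparing libraries labelled P301S Cgas-/- with P301S Cgas+/+ (n = 6 each). In excitatory neuron-like nuclei the medians of Fos, Egr1, Junb and Arc were higher, and that of Bdnf lower, in the libraries labelled P301S Cgas-/-, without a call by edgeR. Fos was at 0.527 CPM (lowest), 1.08 CPM (median) and 5.16 CPM (highest) in P301S Cgas+/+ libraries and at 0.878, 3.41 and 19.4 CPM in P301S Cgas-/- libraries. Egr1 was at 3.42, 5.98 and 23.3 CPM against 8.35, 25.4 and 66.0 CPM, and Junb at 2.80, 7.47 and 12.8 CPM against 5.16, 16.8 and 52.6 CPM. The medians of the libraries labelled P301S Cgas-/- were higher for these 3 genes, and the ranges overlapped, as for all 10 genes (0.266% of all genes did not overlap).

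Among the effector genes, Arc was at 2.17, 4.02 and 19.8 CPM in P301S Cgas+/+ libraries against 3.12, 12.2 and 55.0 CPM in P301S Cgas-/- libraries. Homer1 was at 139.1, 213.4 and 393.6 CPM against 159.4, 284.7 and 436.1 CPM. Bdnf was at 36.1, 43.1 and 55.2 CPM against 27.2, 29.8 and 52.6 CPM. Bdnf had 5 of 6 libraries labelled P301S Cgas-/- below every P301S Cgas+/+ library, and library 3 among the highest.

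None of the 10 genes was called by edgeR in this contrast, where 0% of 16907 genes were called. DESeq2 called 1 of them and 0.627% of all genes. Of the 10, 7 had an unadjusted p under 0.05, against 13.5% of all genes, with a median log2 fold change of 0.91 against 0.01 over all genes. The ratio of P301S Cgas-/- to P301S Cgas+/+ was 3.84 for Fos (log2 1.94 ± 0.66 SE, edgeR adjusted p = 0.233), 3.27 for Egr1 (1.71 ± 0.49, edgeR adjusted p = 0.201) and 2.66 for Junb (1.41 ± 0.49, edgeR adjusted p = 0.234). Arc (1.35 ± 0.60), Npas4 (1.10 ± 0.49) and Nr4a1 (0.73 ± 0.31) had edgeR adjusted p from 0.309 to 0.332. Fosb (0.73 ± 0.71), Egr3 (0.62 ± 0.43) and Homer1 (0.27 ± 0.30) had unadjusted p over 0.05. Bdnf had a log2 fold change of -0.45 ± 0.16 (edgeR adjusted p = 0.242). With the block of libraries as a further term, Egr1 had 1.68 (edgeR adjusted p = 0.175) and Bdnf -0.45 (edgeR adjusted p = 0.210). The gene that DESeq2 called was Egr1 (1.70, adjusted p = 0.0469). Without the 2 high libraries DESeq2 gave it 0.93 (adjusted p = 0.607) and called none of the 10 and 1 of all 17016 genes.

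Single libraries of both groups moved these values. Leaving out P301S Cgas-/- library 2 lowered the log2 fold change to 1.16 for Fos and 0.83 for Arc, and leaving out P301S Cgas-/- library 3 gave 1.64 and 0.90. Leaving out P301S Cgas+/+ library 1, the highest of its group, raised them to 2.60 for Fos (edgeR adjusted p = 0.0610) and 2.03 for Arc (edgeR adjusted p = 0.0740), with 2.23 for Egr1 (edgeR adjusted p = 0.0536). Without both libraries 2 and 3 labelled P301S Cgas-/-, the highest of 1 group only and chosen after their values were seen, the log2 fold change was 0.45 ± 0.62 for Fos, 0.53 ± 0.46 for Junb, 0.92 ± 0.50 for Egr1 (edgeR adjusted p = 0.714), -0.02 ± 0.55 for Arc and 0.14 ± 0.46 for Npas4. Fosb went to -0.73 ± 0.69 and Egr3 to -0.15 ± 0.37, and without library 3 alone they were at 0.04 and 0.09. That of Bdnf was -0.54 ± 0.15 (edgeR adjusted p = 0.654). Of the 10, Bdnf alone then had an unadjusted p under 0.05 by edgeR, where 7.18% of all genes did. By DESeq2 Egr1 did too (DESeq2 unadjusted p = 0.0493).

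**Figure D4:**
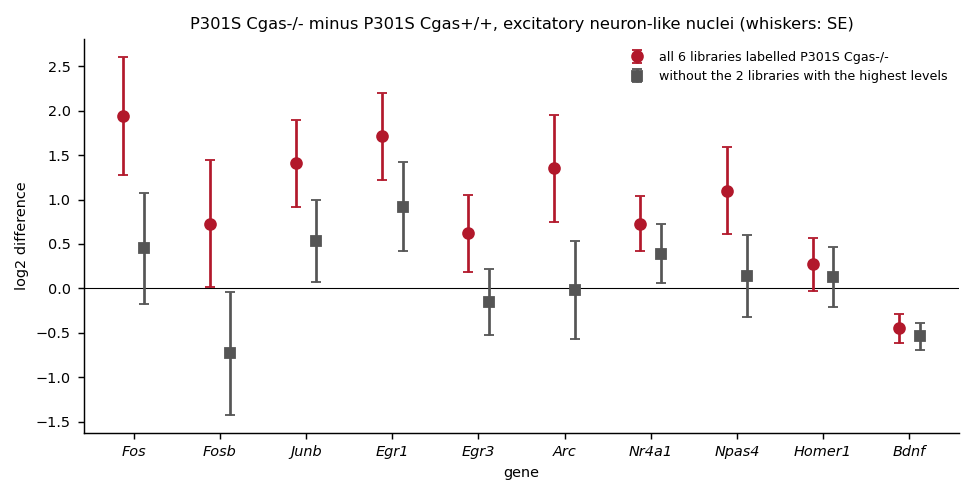
Log2 fold change (± SE) of the 10 genes in excitatory neuron-like nuclei, libraries labelled P301S Cgas-/- minus P301S Cgas+/+, with all 6 libraries per group (circles) and without the 2 libraries with the highest levels (squares). Fos falls from 1.94 to 0.45 and Arc from 1.35 to -0.02, and Bdnf is at -0.45 and -0.54.

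The make-up of the excitatory class moved with this contrast. Cortical-like nuclei made up 51.0% of excitatory neuron-like nuclei (SD 11.8, n = 6) in the libraries labelled P301S Cgas-/- and 25.5% (SD 19.6, n = 6) in P301S Cgas+/+, and dentate granule-like nuclei 15.7% (SD 11.8) and 32.3% (SD 21.4). Nuclei of unnamed subclusters, which enter none of the subtype fits, made up 15.5% (SD 8.17) and 7.23% (SD 7.98). Of these, the subcluster led by Rspo1 had the highest summed level of rapid members of all 36, 409.6 CPM. Since cortical-like nuclei had more of the rapid members and less Bdnf, each subtype was also fitted alone. A higher level in such a sum can mean more nuclei with the RNA or more RNA in each, which sums cannot tell apart. Heat shock genes summed to 75.2 ± 20.7 CPM in the libraries labelled P301S Cgas-/- and to 65.2 ± 25.2 CPM in P301S Cgas+/+. Summed markers of other cell types in the same nuclei were at 380.5 ± 72.0 against 286.0 ± 109.3 CPM for astrocytes, 378.0 ± 241.6 against 758.9 ± 577.2 CPM for inhibitory neurons, 199.4 ± 30.9 against 254.0 ± 57.1 CPM for oligodendrocytes and 33.1 ± 8.86 against 33.7 ± 4.96 CPM for microglia. The inhibitory list holds Adarb2, which was also among the leading genes of a dentate granule-like subcluster of 5700 nuclei. That sum is therefore not a measure of inhibitory neurons alone. The part of these measures in the difference was not tested.

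Within subtypes none of the differences was called by edgeR, and they were not tested against those of the whole class. Of the 8 rapid members 8 were above 0 in cortical-like nuclei and 8 in CA1-like nuclei, and without the 2 high libraries 2 and 5 were. In cortical-like nuclei 0% of all genes were called, and the median over the 10 was 0.50. Junb (log2 1.38 ± 0.58) and Egr1 (1.14 ± 0.48) had an unadjusted p under 0.05 (edgeR adjusted p = 1.0 for both), against 3.68% of all genes. Without the 2 high libraries they were 0.47 and 0.52. In CA1-like nuclei (0% called) the median was 0.56. Npas4 alone had an unadjusted p under 0.05 (0.86 ± 0.40, edgeR adjusted p = 1.0, and 0.18 without the 2 libraries), against 1.72% of all genes. In dentate granule-like nuclei (0% called) the largest log2 fold change was that of Fosb, 1.48 (-0.26 without library 3 and -0.24 without both high libraries). Egr1 alone had an unadjusted p under 0.05, against 3.62% of all genes. It had 0.744, 1.17 and 3.01 CPM at the lowest, median and highest in P301S Cgas+/+ libraries and 1.24, 3.96 and 11.4 CPM in P301S Cgas-/- libraries. The log2 fold change was 1.33 ± 0.43 (edgeR adjusted p = 1.0), and 1.0 ± 0.48 without the 2 libraries. In inhibitory neuron-like nuclei (0% called) Junb (1.54 ± 0.59, edgeR adjusted p = 0.728) and Fos (1.49 ± 0.69, edgeR adjusted p = 0.847) had an unadjusted p under 0.05, against 5.80% of all genes. Without the 2 libraries they were 0.46 and -0.23. Bdnf had -0.43 ± 0.25 in cortical-like, -0.20 ± 0.18 in CA1-like, -0.19 ± 0.15 in dentate granule-like and 0.28 ± 0.42 in inhibitory neuron-like nuclei (edgeR adjusted p = 1.0 for each).

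The heterozygous contrast, of libraries labelled P301S Cgas+/- against P301S Cgas+/+ (n = 6 each), gave no call in excitatory neuron-like nuclei. Nr4a1 was at 26.6, 45.2 and 78.8 CPM (lowest, median and highest) in P301S Cgas+/+ libraries, 51.6, 71.7 and 102.3 CPM in P301S Cgas+/- and 48.9, 75.5 and 147.6 CPM in P301S Cgas-/-. Its ranges overlapped, and the log2 fold change was 0.56 ± 0.31 in the heterozygous contrast (edgeR adjusted p = 0.50), the smallest p of the 10. None of the 10 was called (0% of all genes), and 0 had an unadjusted p under 0.05, against 11.9% of all genes. The median was 0.25, and Fos and Egr1 had 0.44 ± 0.67 and 0.53 ± 0.49. Both contrasts use the same P301S Cgas+/+ libraries, and their difference was not tested. The make-up of the class moved here too, with 46.3% cortical-like (SD 5.42) and 18.9% unnamed nuclei (SD 12.97) in the libraries labelled P301S Cgas+/-.

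Without the transgene, the libraries labelled Cgas-/- (n = 2, both male) were compared with Cgas+/+ in a fit of all 27 libraries. Both lie in the block of 12 libraries, all of males, whereas the Cgas+/+ libraries lie in every block. Fos was at 0.299 and 0.609 CPM, on 7 and 15 UMIs, in the Cgas-/- libraries. Egr1 was at 3.67 and 5.4 CPM, Arc at 2.31 and 2.84 CPM and Bdnf at 46.9 and 57.0 CPM. The levels of the rapid members lay within or below the range of the Cgas+/+ libraries, and 1 of the Bdnf values lay above it. None of the 10 was called (0% of 17740 genes), and 0 had an unadjusted p under 0.05, against 7.60% of all genes. The log2 fold changes were -2.07 ± 1.15 for Fos (edgeR adjusted p = 0.701) and 0.48 ± 0.24 for Bdnf (edgeR adjusted p = 0.683), with a median of -0.86. Cortical-like nuclei were 6.13% of the excitatory neuron-like nuclei in these libraries (mean of 2) and 33.1% in Cgas+/+.

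Whether the Cgas difference itself differed with and without the transgene was tested by the interaction. None of the 10 was called by edgeR, where 0.406% of all genes were called, and 6 had an unadjusted p under 0.05, against 18.6% of all genes. The interaction was 4.01 ± 1.35 (log2, SE) for Fos (edgeR adjusted p = 0.115), 2.77 ± 0.92 for Egr1 (edgeR adjusted p = 0.111) and -0.93 ± 0.30 for Bdnf (edgeR adjusted p = 0.0975). DESeq2 called 4.90% of all genes and 3 of the 10, namely Fos (4.0, adjusted p = 0.0144), Egr1 (2.74, adjusted p = 0.0211) and Nr4a1 (1.60, adjusted p = 0.0493). Without the 2 high libraries edgeR gave 2.40 for Fos (adjusted p = 0.327), 1.91 for Egr1 (adjusted p = 0.302) and -0.97 ± 0.27 for Bdnf (adjusted p = 0.145), with an unadjusted p under 0.05 for each. Leaving out Cgas+/+ library 2 called Bdnf (-1.10, edgeR adjusted p = 0.0383), and leaving out P301S Cgas+/+ library 1 called Fos (4.51, edgeR adjusted p = 0.0402) and Egr1 (3.17, edgeR adjusted p = 0.0310). The share of all genes called in these fits is not given here, so these calls are not read as a result about the members. The libraries labelled Cgas-/- without the transgene are 2 males with few cortical-like nuclei, so the interaction and the make-up of the class cannot be told apart. Both lie in the block of 12 libraries, all of males, whereas the Cgas+/+ libraries lie in every block. The main fit had no block term, and the part of the block was not tested. In dentate granule-like nuclei Egr1 had 2.11 (edgeR adjusted p = 1.0) and none was called (0% of 14396 genes).

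In astrocyte-like nuclei the medians of Fos, Junb and Bdnf were higher in the P301S Cgas+/+ than in the Cgas+/+ libraries, without a call by edgeR. Fos was at 0.266, 1.70, 1.87, 2.21 and 3.46 CPM in the Cgas+/+ libraries, and at 3.83 CPM (lowest), 8.65 CPM (median) and 24.4 CPM (highest) in P301S Cgas+/+. The groups did not overlap, as was the case for 1 of the 7 genes tested and for 1.28% of all genes. It was at 2.88, 10.4 and 25.8 CPM in P301S Cgas+/- and at 2.52, 12.3 and 15.8 CPM in P301S Cgas-/-. The libraries labelled Cgas+/- (1.81 and 2.26 CPM) and Cgas-/- (1.10 and 2.16 CPM) lay in the range of Cgas+/+. Junb was at 3.45, 3.06, 0.375, 3.54 and 4.55 CPM in Cgas+/+ and at 3.73, 8.93 and 49.7 CPM in P301S Cgas+/+. Bdnf was at 7.17, 7.82, 7.87, 6.19 and 8.44 CPM against 7.88, 18.8 and 55.9 CPM. Of the 6 P301S Cgas+/+ libraries, 3 lay above the Cgas+/+ range for Junb and 5 for Bdnf, and the others lay within it.

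By edgeR none of the 7 genes tested was called in the astrocyte tau contrast (0.00771% of 12971 genes), and 3 had an unadjusted p under 0.05, against 11.2% of all genes. The ratio of P301S Cgas+/+ to Cgas+/+ was 5.55 for Fos (log2 2.47 ± 0.70 SE, edgeR adjusted p = 0.232), 5.70 for Junb (2.51 ± 0.86, edgeR adjusted p = 0.287) and 3.23 for Bdnf (1.69 ± 0.58, edgeR adjusted p = 0.292). DESeq2 called 1.19% of all genes, among them Fos (2.51, adjusted p = 0.0103) and Junb (2.67, adjusted p = 0.0419). Egr1 had 0.79 ± 0.60, Arc -0.33 ± 0.62 and Homer1 -0.13 ± 0.16. In the deletion contrast the log2 fold change was -0.11 ± 0.53 for Fos, -0.13 ± 0.68 for Junb and -0.56 ± 0.51 for Bdnf, and 0 of 7 were called (0% of all genes).

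**Figure D5:**
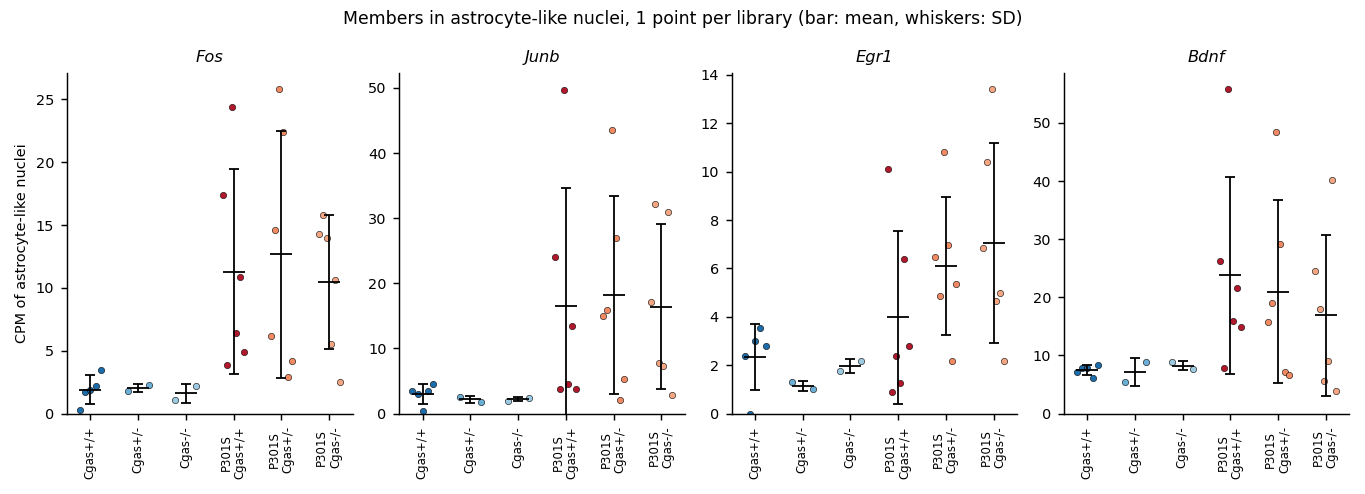
CPM of Fos, Junb, Egr1 and Bdnf in astrocyte-like nuclei, 1 point per library, by labelled genotype group, with bars for the mean and whiskers for the SD. For Fos the 5 Cgas+/+ libraries lie between 0.266 and 3.46 CPM and the 6 P301S Cgas+/+ libraries between 3.83 and 24.4 CPM.

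In oligodendrocyte-like nuclei, 0 of 8 genes tested were called in the tau contrast (0.00867% of 11532 genes). Fos had 1, 0, 1, 0 and 0 UMIs in the Cgas+/+ libraries, and 10, 0, 19, 4, 17 and 4 UMIs in P301S Cgas+/+ (edgeR adjusted p = 0.665), so no fold is given. In the deletion contrast (0% called) Egr1 was at 1.28, 4.26 and 5.07 CPM (lowest, median and highest) in P301S Cgas+/+ libraries and at 4.58, 7.5 and 13 CPM in P301S Cgas-/-. Arc was at 4.49, 6.45 and 12.9 CPM against 5.89, 10.6 and 20.7 CPM. Both overlapped, with log2 fold changes of 1.15 ± 0.32 for Egr1 (edgeR adjusted p = 1.0) and 0.72 ± 0.25 for Arc (edgeR adjusted p = 1.0). Without the 2 high libraries they were 0.81 and 0.29. In microglia-like nuclei 4 genes were tested and 0 were called (0% of 9097 genes), with the smallest p for Nr4a1 in the tau contrast (-0.90 ± 0.45, edgeR adjusted p = 0.335).

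None of the listed genes of the rest of the pathway was called by edgeR in any of the contrasts above (63 to 95 genes tested in each), the smallest adjusted p being 0.0737, in the interaction in excitatory neuron-like nuclei. In excitatory neuron-like nuclei in the deletion contrast, 7 of 31 other rapid activity-induced genes had an unadjusted p under 0.05, with a median log2 fold change of 0.39, where 13.5% of all genes did. Of the later activity-induced genes 5 of 20 did (median 0.29), and, near the share of all genes, of the upstream calcium and transcription factors 4 of 26 (median -0.04) and of the binding partners and receptors 2 of 14 (median -0.04). The gene with the smallest p was Ier2 (1.44 ± 0.51) among the rapid genes, Rgs4, a brake on G proteins (0.88 ± 0.25), among the later ones, and Mef2c, a transcription factor of neuronal genes (0.75 ± 0.24), among the upstream factors. Their edgeR adjusted p ran from 0.201 to 0.242. Without the 2 high libraries 1 of the 31 other rapid genes and 0 of the 20 later genes had an unadjusted p under 0.05, against 7.18% of all genes, with medians of -0.02 and 0.05. Ier2 was then at 0.22 ± 0.44, Rgs4 at 0.48 ± 0.24 and Mef2c at 0.72 ± 0.28. Sort1, the receptor that sorts the precursor of Bdnf, had -0.23 ± 0.07 in both the deletion and the heterozygous contrast, and none of 4 heat shock genes had an unadjusted p under 0.05. In the tau contrast 1 of 31 other rapid genes did, against 2.27% of all genes. It was Atf3, a stress-induced factor (3.48 ± 0.95, edgeR adjusted p = 1.0). In astrocyte-like nuclei in the tau contrast 3 of 24 other rapid genes and 4 of 12 later genes did, against 11.2% of all genes, and the smallest p in each list were those of Zfp36, which destabilises cytokine mRNA (2.52 ± 0.57, edgeR adjusted p = 0.229), and Cdkn1a, a cell cycle inhibitor (3.01 ± 0.89, edgeR adjusted p = 0.245). The medians of those lists were 0.18 and -0.25, against -0.01 over all genes.

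Between neuron classes most genes passed the test, so the counts of the lists are read beside those of all genes. In inhibitory against excitatory neuron-like nuclei, 16 of 24 other rapid genes were lower and 5 higher (median -0.88), and 12 of 19 later genes were lower and 6 higher (median -1.45), where 36.8% of all genes were lower and 38.8% higher. Nrn1, a surface protein that promotes neurites (log2 -4.47 ± 0.07), and Nr4a2, a relative of Nr4a1 (-3.51 ± 0.07), were among the lowest, and the neuropeptide precursors Penk (2.11 ± 0.12) and Scg2 (1.5 ± 0.07) were higher. In dentate granule-like against CA1-like nuclei 17 of 22 other rapid genes were lower and 5 higher (median -0.65), while of the upstream factors 18 of 26 were higher and 5 lower (median 0.26), opposite to the members. Of all genes 37.1% were lower and 35.4% higher. In cortical-like against dentate granule-like nuclei 17 of 24 other rapid genes were higher and 3 lower (median 1.29), where 37.7% of all genes were higher and 36.0% lower.

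Genes with the most similar pattern over the 27 libraries were found by Pearson r with the mean z-scored level of 8 members, centred on group. These were the members that reached 5 CPM in excitatory neuron-like nuclei: Junb, Egr1, Egr3, Arc, Nr4a1, Npas4, Homer1 and Bdnf. They are not the 8 rapid members, as Fos and Fosb are left out. Of all genes compared, 2187 had r over 0.5 with this level. Among 9900 genes, Midn (r = 0.90), Trp53inp2 (0.89), Zdhhc5 (0.88), Fscn1 (0.88), Ndel1 (0.87), Siah2 (0.87), Ywhag, Fbxo33, Ttpal and Ufsp2 (0.86 each) were highest. Only Fbxo33 belongs to the list of other rapid activity-induced genes. The median r was 0.63 over the 14 other rapid genes compared, 0.68 over 3 heat shock genes, 0.50 over 12 later genes, 0.24 over 25 upstream factors and 0.26 over all 9900 genes. When the 2 high libraries were left out, 6 of these 10 genes remained among the first 10, and the medians were 0.60 for the other rapid genes, 0.58 for heat shock, 0.32 for the later genes, 0.23 for the upstream factors and 0.21 for all genes.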

How the data were processed

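The authors aligned the reads to mm10 with Cell Ranger 3.1.0, counting reads on unspliced RNA. The submitters' processing notes name Seurat 3.0 and the study's methods a later version, which has no part in the counts used here. The deposited values are raw UMI counts per gene and barcode, and the matrix headers name version 3.0.2 for 12 libraries and 3.1.0 for 15. From these counts, 204852 of 241938 barcodes were kept: those with 200 to 4000 genes and at most 5% mitochondrial UMIs, less 16429 doublets by Scrublet (0.8% per 1000 barcodes). Pairs of libraries shared 8 to 48 barcodes. Nuclei were clustered with scanpy 1.11.5 (2000 variable genes, 30 components, 15 neighbours, Leiden resolution 1) without 113 activity-related genes. Clusters were named from markers, by a scoring rule that was revised after the markers, but no group comparison, had been seen.

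Counts were summed per library and class where at least 10 nuclei were present. They were tested with edgeR 4.0.16 (R 4.3.3, TMM, filterByExpr, robust quasi-likelihood, sex as a covariate, Benjamini-Hochberg threshold 0.05), and classes with the mouse as a block. In class comparisons with a library left out, genes and dispersion trend of the full fit were kept. CA3-like nuclei were too few in 5 libraries, so their group contrasts were not fitted and comparisons with them use 22 libraries. The study tested nuclei singly, whereas here the mouse is the replicate. Alternatives were DESeq2 1.42.0, other size factors, no filter on low counts, no sex term, other samples in the fit, a block term, other pseudocounts (1 in the main values, 5 instead) and thinning (1000 or 2000 UMIs), and leaving out each library. The members and lists were chosen with earlier results of these data known. All 10 members are named. From each list, the genes called are named, or else the gene with the smallest p, and Zfp36, Cdkn1a, Nrn1, Nr4a2, Penk and Scg2 were picked from larger sets after their values were seen. Lists count as called only over all genes. Intervals cover counting error only.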

Additional observations from a re-analysis of the deposited data

Results flagged for a closer look

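In 8 of the 80 groups of 4 to 10 libraries that were looked at, 1 library lay far from the others by the gap at the end of the group's range, where chance gives about 1 in 20. Library 1 labelled P301S Cgas+/+ was the highest of its group in excitatory neuron-like nuclei for Fos (5.16 CPM, next 1.62), Fosb (7.34 CPM, next 1.73), Egr1 (23.3 CPM, next 9.62) and Egr3 (21.5 CPM, next 8.0). It also had the highest heat shock level of all 27 libraries, 115.4 CPM, and 53.0% cortical-like nuclei. Library 3 labelled P301S Cgas-/- was the highest of its group for Egr3 (40.4 CPM, next 16.4) and Bdnf (52.6 CPM, next 32.1) in excitatory neuron-like nuclei, and for Fosb (6.51 CPM, next 2.39) and Arc (7.99 CPM, next 1.96) in inhibitory neuron-like nuclei. Its heat shock level was 107.0 CPM. The part of tissue handling or of the make-up of the class in these values was not tested.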

How the results depend on the processing

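No paired analysis was possible because the replicate numbers follow the order of accession and pair no mice across genotype groups; the neuron classes of a mouse were compared within mice. Over 2734 values for 127 results under the alternatives, 2702 kept their direction and their side of the threshold, or moved by less than the spread. Of these values, 2063 came from leaving out 1 library. In the main group contrasts edgeR called no member, so a value could fall much in size and still keep its side. The count therefore does not show that sizes held. With DESeq2, 1 member was called in the deletion contrast and 3 in the interaction in excitatory neuron-like nuclei, and 2 in the tau contrast in astrocyte-like nuclei, against 0 with edgeR. Leaving out 1 library gave 0 to 2 members called in the interaction, where the share of all genes called in those fits is not given. Without the 2 high libraries, the deletion log2 fold change turned to -0.73 for Fosb, -0.15 for Egr3 and -0.02 for Arc in excitatory, -0.23 for Fos in inhibitory neuron-like and -0.24 for Fosb in dentate granule-like nuclei, the last also without P301S Cgas-/- library 3 alone (-0.26 to 2.48 over the libraries left out 1 at a time). In the libraries without P301S alone, 3 class differences no longer passed: Fos (-0.20) and Egr1 (-0.32) in inhibitory against excitatory neuron-like nuclei and Homer1 (0.17) in CA1-like against CA3-like nuclei. Egr3 in dentate granule-like against CA3-like nuclei passed when any 1 of 5 libraries was left out (-0.36 to -0.34, edgeR adjusted p from 0.0306 to 0.0442): Cgas+/+ libraries 2 and 5, Cgas+/- library 1, Cgas-/- library 1 and P301S Cgas+/+ library 1. The median r of the rapid pairs was 0.60 in CA1-like nuclei alone. Fewer samples or nuclei enter several of these alternatives; otherwise the cause was not tested. The filter on low counts left Fos out of the tau, deletion and heterozygous contrasts in dentate granule-like and microglia-like nuclei, and Fosb out of those in inhibitory neuron-like and the 3 glial classes.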
